A study of Mus musculus with 18 samples.

Results

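Vasopressin and oxytocin transcripts varied together over 18 arrays of mouse hypothalamus, and the arrays at either end of that range are compared here. The 18 arrays were ranked by the log2 value of Avp, the vasopressin gene, and the 6 highest were set against the 6 lowest, so 12 of 18 arrays entered the comparison and 6 in the middle did not. The members were thus chosen by the measured Avp values alone, with no genotype label. Avp is therefore described but not tested, and the tests concern the other genes. The arrays came from the dissected hypothalami of Wfs1 mutant and wild-type mice. Wfs1 encodes wolframin, a membrane protein of the endoplasmic reticulum. The labels call the strain 129SV, while the series text has 129S6. No other allele, treatment, age or sex is given. Nothing says that the arrays are of different animals, and the p-values then reflect array-to-array spread that can be technical. Each array is called here by its title ending, its genotype field and a number that only names it, as in ko/WT 4, because these labels contradict each other on 9 of 18 arrays.

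The high group held wt/WT 3, ko/KO 2, ko/WT 2, ko/WT 3, wt/WT 2 and ko/KO 4, and the low group held ko/WT 5, ko/KO 1, ko/KO 5, wt/WT 4, wt/WT 1 and ko/WT 4. By title ending each group held 4 ko and 2 wt arrays, and by genotype field each held 2 KO and 4 WT arrays (two-sided Fisher's exact test, p = 1 for each label). These tests took each label alone and do not show that the combinations were balanced. All the wt/KO arrays lay in the middle group, at ranks 7 to 10 by Avp. The KO arrays compared were therefore all ko/KO, and the wt arrays compared all wt/WT. Wfs1 itself was 8.20 ± 0.33 log2 units (SD, n = 6) on the high arrays and 8.30 ± 0.31 (SD, n = 6) on the low arrays, and the groups overlapped (difference -0.10, SE 0.15, adjusted p = 0.778; exact permutation p = 0.591). Without ko/KO 1 that difference was -0.016 and without ko/KO 2 it was -0.20. In the order given above, Wfs1 read 7.89, 8.68, 8.56, 8.07, 8.04 and 7.97 on the high arrays. On the low arrays it read 8.36, 8.72, 7.86, 8.41, 8.02 and 8.44. None of the 18 arrays lay between 8.07 and 8.36, and both title endings and both genotype fields occurred on either side of that gap. Avp, Oxt, Pmch and Hcrt, transcripts of hypothalamic neurons, lay above the upper quartile of the array (8.53 to 8.63) on all 18 arrays, and array medians lay between 7.10 and 7.19. Either extreme of the Avp ranking was an array that stood apart in 1 marker gene. The array wt/WT 3, highest in Avp, had a Ttr level of 12.8, against 8.01 to 10.62 on the other 17. Ttr encodes transthyretin, a product of the choroid plexus. The array ko/WT 4, lowest in Avp, had an Xist level of 5.93, against 10.31 to 10.79 on the other 17. All 6 low arrays had a first number from 5 to 11 in their sample titles, a run that held only 1 other array, the middle array wt/KO 4. The high arrays had the numbers 3, 4, 13, 17, 19 and 20. What this number stands for is not given, and in this comparison it and the Avp group cannot be told apart.

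**Figure D1:**
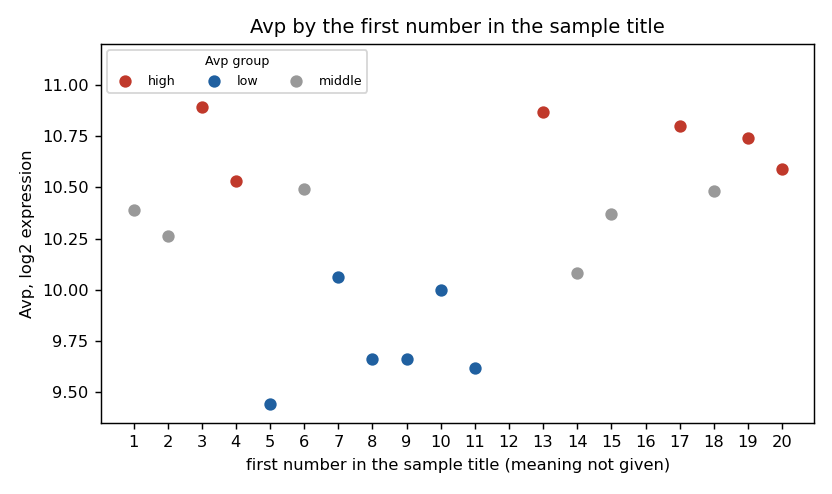
The log2 expression of Avp (vertical axis) against the first number in the sample title, whose meaning is not given (horizontal axis), with 1 point per array, coloured by Avp group. The 6 low arrays all lie between 5 and 11, where the other array is in the middle group.

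Vasopressin and oxytocin are peptide hormones of large neurons in the paraventricular and supraoptic nuclei, whose axons end in the posterior pituitary. Each is made as a precursor together with a carrier protein, neurophysin, and cut free in dense-core granules. Vasopressin makes the kidney retain water, and its transcript increases when body fluids become concentrated. Oxytocin acts in birth, lactation and social behaviour. Smaller neurons of the suprachiasmatic nucleus, the body clock, also make vasopressin. The genes are neighbours with opposite transcription directions, and most magnocellular neurons make mainly one of the peptides.

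The sequence before each start site is shown because the genes adjoin each other and their transcripts varied together. Both are from RefSeq, build GRCm38.p6, and cover 250 bases upstream, at chr2:130582589-130582838 on the minus strand for Avp and chr2:130575919-130576168 on the plus strand for Oxt. Capitals mark the searched motifs.
Avp: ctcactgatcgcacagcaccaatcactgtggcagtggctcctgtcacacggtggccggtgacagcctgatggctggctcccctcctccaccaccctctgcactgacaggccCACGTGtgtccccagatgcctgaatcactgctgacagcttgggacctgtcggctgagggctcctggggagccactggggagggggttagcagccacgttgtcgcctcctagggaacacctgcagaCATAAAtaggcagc
Oxt: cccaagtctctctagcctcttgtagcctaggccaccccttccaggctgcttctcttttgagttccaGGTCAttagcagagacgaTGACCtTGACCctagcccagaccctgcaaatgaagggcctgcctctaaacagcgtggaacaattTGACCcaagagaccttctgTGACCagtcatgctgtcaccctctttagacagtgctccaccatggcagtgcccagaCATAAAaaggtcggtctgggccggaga
The motifs were searched on both strands, none overlapping another in these stretches. CACGTG, a canonical E-box, occurred once before Avp and not before Oxt, and 6.02% of 32851 promoters of this length hold it. TGACC, the core of a half-site for nuclear receptors, occurred 5 times before Oxt and not before Avp. At least 1 copy is common (35.2% of promoters), while 14 promoters (0.0426%) hold 5 or more. The threshold of 5 was set by the count before Oxt itself, so that share is a description and no test. CATAAA, which resembles a TATA box, stood near the start of both, and 10.8% of promoters hold it. These are matches of letters, not measured sites.

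Avp ranged from 9.44 to 10.89 log2 units over the 18 arrays. The high arrays read 10.89, 10.87, 10.80, 10.74, 10.59 and 10.53 in the order given above, and the low arrays 10.06, 10, 9.66, 9.66, 9.62 and 9.44. The group means were 10.74 ± 0.15 and 9.74 ± 0.24 log2 units (SD, n = 6 each), a ratio of 2.0 that follows from the choice of arrays. The middle arrays ran from 10.08 to 10.49. No gap separated the groups from them, since the lowest high array was at 10.53 and the next below at 10.49, and the highest low array was at 10.06 and the next above at 10.08.

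Oxt was higher on every high array than on any low array. In the same order its values were 11.15, 11.11, 10.75, 11.08, 10.88 and 10.75 on the high arrays, and 10.40, 10.42, 10.03, 10.18, 10.50 and 10.02 on the low arrays. The lowest high array (10.75) thus lay above the highest low array (10.50), and the middle arrays (10.40 to 10.81) overlapped both groups. The means were 10.95 ± 0.18 and 10.26 ± 0.21 log2 units (SD, n = 6 each), a difference of 0.695 (SE 0.10), or 1.62-fold. The two-sided exact permutation test gave p = 0.0022, the smallest that 6 against 6 arrays allow. In the limma fit over all genes Oxt had the smallest p of 19936 genes (3.98e-06), and its adjusted p of 0.0793 missed the threshold of 0.05. It was past the threshold in 4 alternative fits, with adjusted p from 0.000883 to 0.0315, and at 0.567 without both wt/WT 3 and ko/WT 4, where the difference was 0.608. The value of 0.000883 came from a slope on the Avp values that chose the arrays, so it is a description only. Of single arrays left out, ko/WT 4 gave the lowest difference (0.647) and wt/WT 1 the highest (0.743). In dissected tissue, fewer cells of a type and less RNA per cell cannot be told apart. The mouse neurophysin parts of both transcripts are closely alike, and whether a probeset of one also reads the other was not tested.

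The correlation of Oxt with Avp uses the same Avp values as the choice of arrays, so it is given as a description with no test. Over all 18 arrays Pearson's r was 0.890 and Spearman's rho 0.858. Without wt/WT 1 and ko/WT 4, the arrays farthest from the median of Avp, r was 0.905 and rho 0.853. Within the 7 arrays numbered 5 to 11, r was 0.777 and rho 0.595, and in the 11 other arrays, which pool lower and higher numbers, r was 0.751 and rho 0.715. The 6 middle arrays, which span a narrow range of Avp, gave r = 0.0928 and rho = 0.0857.

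**Figure D2:**
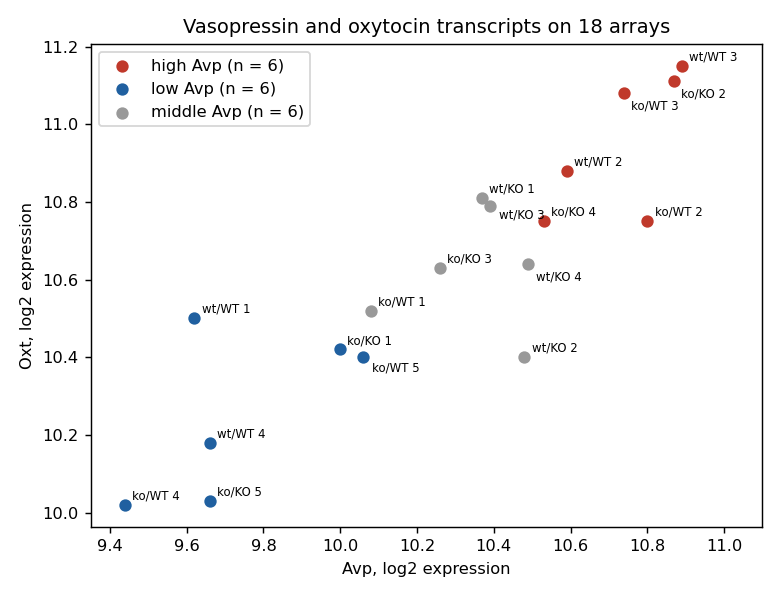
The log2 expression of Oxt (vertical axis) against that of Avp (horizontal axis) on 18 arrays, 1 labelled point per array, coloured by Avp group. The 6 high arrays lie between 10.75 and 11.15 in Oxt and the 6 low arrays between 10.02 and 10.50.

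The other genes around Avp on chromosome 2 differed less between the groups than Oxt did. Of the 5 genes in the annotation on each side of Avp, Oxt is the nearest on one. The other 9 differed by -0.125 (4930402H24Rik, SE 0.061) to 0.11 (Ddrgk1, SE 0.060), with the lowest adjusted p at 0.387. Lzts3, the nearest neighbour of Avp on its other side, stood at 8.93 in both groups.

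Across the transcriptome no gene passed an adjusted p of 0.05 (0 of 19936 genes, 0%, limma with Benjamini-Hochberg adjustment). At an unadjusted p under 0.05 there were 2643 genes (13.3%), 1506 of them higher (7.55%) and 1137 lower (5.7%) on the high arrays. Chance alone would give 997 on average. Genes that vary together widen the spread around 997, and whether 2643 lies outside it was not tested. The groups did not overlap in 65 genes that were higher (0.326%) and 49 that were lower (0.246%). That count at an unadjusted p under 0.05 was 1759 without ko/KO 2 and 4193 without wt/WT 1, 1728 without both wt/WT 3 and ko/WT 4, and 4452 with array quality weights. The median difference was 0.013 and the median size 0.082 log2 units, while the median SE was 0.076, so most differences were about the size of their error. After Oxt the lowest adjusted p was 0.294, and every value below is that of a gene that did not pass.

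Of the other genes with the smallest p among those higher on the high arrays, several encode receptors or neuronal proteins. Vipr1, a receptor for vasoactive intestinal peptide, ran from 6.81 to 7.02 (median 6.95) on the high arrays and from 6.45 to 6.77 (median 6.64) on the low arrays, a difference of 0.32 (SE 0.064). Ngb encodes neuroglobin, an oxygen-binding globin of neurons. It ran from 9.54 to 9.70 (median 9.63) against 9.17 to 9.47 (median 9.30), a difference of 0.30 (SE 0.063). The homeobox gene Dlx2, which acts in the development of inhibitory neurons, ran from 7.67 to 7.97 (median 7.83) against 7.42 to 7.63 (median 7.58), a difference of 0.30 (SE 0.065). The groups did not overlap in these 3 genes. Sctr, the secretin receptor, differed by 0.375 (SE 0.082), with overlap between its lowest high array at 6.54 and its highest low array at 6.55. Mrpl54 (0.29) and Ndufa13 (0.27), a mitochondrial ribosomal protein and a subunit of complex I, did not overlap between groups either. Neither did the gasdermin gene Gsdma3 (0.27), the proton channel gene Otop2 (0.27) and Ugt3a1 (0.44), a glycosyltransferase whose values of 4.0 to 4.89 lie below the lower quartile of every array (5.81 to 6.0).

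Among the genes lower on the high arrays, Slc12a2 encodes the cotransporter NKCC1, which brings sodium, potassium and chloride into cells. It ran from 9.76 to 9.92 (median 9.89) on the high arrays and from 9.96 to 10.17 (median 10.13) on the low arrays, a difference of -0.24 (SE 0.056) without overlap. Zfp773, a zinc finger gene (-0.32), Runx1t1, a corepressor of transcription (-0.255), Gfm2, a mitochondrial translation factor (-0.23), Rc3h1, which encodes the RNA-binding protein Roquin-1 (-0.23), and Flrt2, a cell adhesion gene (-0.23), also had groups without overlap. The groups overlapped in Swt1 (-0.38), Abcb1b (-0.29), Rasgrp3 (-0.39) and Colec12 (-0.30). Abcb1b encodes a drug efflux pump and Rasgrp3 an activator of Ras proteins. The adjusted p of all these genes was 0.294.

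**Figure D3:**
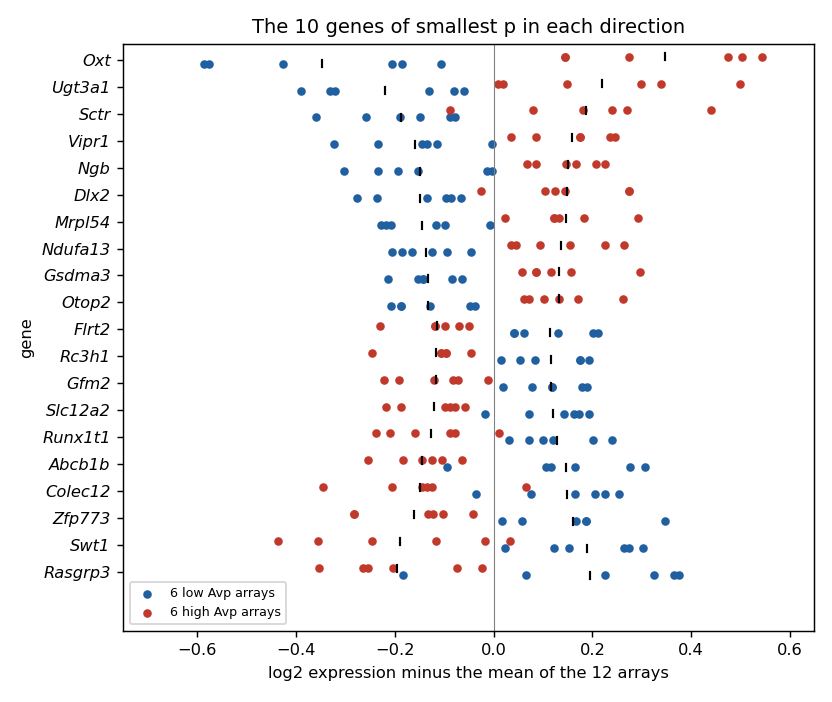
Each row is 1 of the 10 genes of smallest p in either direction, with its log2 expression on each of the 12 arrays less the mean of those arrays (horizontal axis); points are single arrays and bars group means. Oxt has the widest separation, and the groups overlap in Sctr, Swt1, Abcb1b, Rasgrp3 and Colec12.

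Likeness to Avp was ranked by Pearson's r over all 18 arrays, which use the same Avp values as the groups, so it is a description with no test. After Oxt (0.890) came Noct (0.839), Barhl2 (0.812), Phpt1 (0.808), Klf16 (0.800), Hmox1 (0.775), Spr (0.764), Scand1 (0.763), Ngb (0.761) and Mpped1 (0.754). Noct encodes nocturnin, a phosphatase with a daily rhythm, and its levels were 8.72 to 8.90 (median 8.80) on the high arrays and 8.49 to 8.66 (median 8.59) on the low arrays. Barhl2, a homeobox gene, was at 6.95 to 7.32 (median 7.09) against 6.78 to 6.94 (median 6.83). The span of Noct over all 18 arrays was thus small beside that of Oxt. The lowest correlations were those of Cpeb2 (-0.791), Slc5a3 (-0.788), Zfp142 (-0.787), Itsn1 (-0.781) and Abcb1b (-0.781). Slc5a3 carries myo-inositol into cells, a solute that protects against osmotic stress. It ran from 8.67 to 9.01 (median 8.88) on the high arrays and from 9.03 to 9.19 (median 9.10) on the low arrays, without overlap. Genes picked by their correlation with Avp tend to split between groups cut on Avp, so these ranges are no separate result. Over all genes, 0.326% were higher and 0.246% lower without overlap.

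Gene lists are described next by counts and medians. Of all 19936 genes, 10798 were higher and 9041 lower on the high arrays. At an unadjusted p under 0.05, 7.55% of all genes were higher and 5.7% lower. Every list count below is to be read beside these shares. Leaving out 1 array moved the median by over 1.5 times in 22 of 31 lists and changed its sign in 8, which are named below. Genes of the vasopressin and oxytocin system differed in direction among themselves. Of 18 measured, 7 were higher and 11 lower on the high arrays, with a median of -0.018 against 0.013 for all genes. At an unadjusted p under 0.05, 3 were higher (Oxt, Creb3l1, Trpv4) and 4 lower (Slc12a2, Aqp4, Rxfp1, Nfat5). Creb3l1, a transcription factor known to activate Avp, differed by 0.19 (SE 0.069), from 7.04 to 7.38 on the high arrays and 6.93 to 7.20 on the low arrays. Trpv4, an ion channel that responds to osmotic swelling, differed by 0.24 (SE 0.088). Nfat5, the transcription factor of the response to high tonicity, differed by -0.13 (SE 0.059), and Aqp4, the water channel of astrocytes, by -0.255 (SE 0.093). Caprin2, which binds Avp transcripts, differed by -0.12 (SE 0.084). Of the receptors for the hormones, Avpr1a (-0.0033, SE 0.097) and Oxtr (0.0083, SE 0.084) differed by less than their SE, and either sign was reached with 1 array left out. Avpr1b (0.12, SE 0.10) and Avpr2 (-0.080, SE 0.076) differed by slightly more than theirs. A further list of genes for osmolyte and volume regulation was drawn up after values were seen and includes Slc5a3 and Slc12a2. All of its 8 measured members were lower on the high arrays, with a median of -0.13, or -0.069 with the gene-span term described below. A list drawn up in this way can share a direction through the choice of its members.

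Transcription factors of the paraventricular and supraoptic nuclei were divided. Of 15, 9 were higher and 6 lower (median 0.043). Otp, required for these neurons to form, differed by 0.15 (SE 0.058), and Sim1, which acts with it, by 0.043 (SE 0.085), or -0.0090 without ko/WT 4. Pou3f2, also required for vasopressin and oxytocin neurons, differed towards the low arrays, at 7.88 to 8.60 (median 8.08) on the high arrays and 7.94 to 9.04 (median 8.54) on the low arrays, a difference of -0.39 (SE 0.16), or -0.072 with the gene-span term described below.

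Of 15 other neuroendocrine peptides, 12 were higher and 3 lower (median 0.063), with 4 higher and 0 lower at an unadjusted p under 0.05. Galanin, a peptide that vasopressin neurons can also make, is encoded by Gal, which was at 7.45 to 7.74 (median 7.52) on the high arrays and 6.88 to 7.58 (median 7.19) on the low arrays, a difference of 0.345 (SE 0.10). Cartpt, the CART peptide gene, differed by 0.31 (SE 0.11), Trh, the thyrotropin-releasing hormone gene, by 0.25 (SE 0.10) and Vgf by 0.14 (SE 0.058). Crh, the corticotropin-releasing hormone gene, differed by -0.073 (SE 0.11), or 0.035 without ko/KO 2.

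The machinery that packs and cuts such peptides was not uniformly higher. Of 18 genes, 8 were higher and 10 lower (median -0.038), and at an unadjusted p under 0.05, 6 were higher and 1 lower. The higher ones included Resp18 (0.25, SE 0.077), a protein of secretory granules, and the granins Chga (0.16, SE 0.056) and Chgb (0.13, SE 0.054). The prohormone convertase Pcsk1 (-0.038, SE 0.078, or 0.0033 without ko/KO 1), the carboxypeptidase Cpe (-0.040, SE 0.057) and the amidating enzyme Pam (-0.037, SE 0.061) lay within their error.

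Markers of the suprachiasmatic nucleus, the other site of Avp, were mostly slightly higher, 15 of 21 (median 0.053). Of these only Nms, the neuromedin S gene, was at an unadjusted p under 0.05 (0.21, SE 0.082). Vip differed by 0.115 (SE 0.088), or 0.057 without ko/KO 5, and Grp by 0.13 (SE 0.076), the latter 0.068 without wt/WT 1. Circadian clock genes were mostly slightly lower, 14 of 18 (median -0.041). Clock differed by -0.17 (SE 0.065) and Bhlhe41 by -0.155 (SE 0.086), or -0.084 without ko/KO 5, while the period genes Per1 (-0.043, SE 0.071, or 0.0057 without wt/WT 1) and Per2 (-0.077, SE 0.073) lay close to their error.

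Many transcripts of other hypothalamic neurons also had higher values on the high arrays. In the arcuate list 14 of 17 genes were higher (median 0.090), with 5 higher and 2 lower at an unadjusted p under 0.05. Its widest difference was that of a lower member, Slc6a3 (-0.67, SE 0.25), and the other lower one was Lepr, the leptin receptor gene (-0.17, SE 0.077). Npy, the appetite peptide neuropeptide Y, had values of 9.40 to 9.79 (median 9.62) on the high arrays and 8.69 to 9.42 (median 9.19) on the low arrays, a difference of 0.50 (SE 0.11). Only ko/KO 5 of the low arrays, at 9.42, reached the range of the high ones. Kiss1, the kisspeptin gene, differed by 0.205 (SE 0.067), and Pomc, the melanocortin precursor gene, by 0.030 (SE 0.090), or -0.052 without ko/KO 2.

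In the lateral and posterior hypothalamic list 17 of 20 genes were higher (median 0.082). Hcrt, the orexin gene, was at 9.63 to 10 (median 9.78) against 9.11 to 9.68 (median 9.51), a difference of 0.35 (SE 0.097). Pmch, the melanin-concentrating hormone gene, differed by 0.092 (SE 0.10), or 0.032 without ko/KO 1. The preoptic and anterior list had 12 of 19 genes higher (median 0.095), with 7 higher and 0 lower at an unadjusted p under 0.05, among them Lhx6 (0.25, SE 0.074) and Hmx3 (0.21, SE 0.071). The ventromedial and dorsomedial list was even, with 6 of 14 genes higher and 7 lower, a median of -0.0025 that 1 array could turn (0.035 without ko/WT 2), and Nfib, a nuclear factor gene, at -0.185 (SE 0.076). These lists share members, such as Gal, so their counts are not separate evidence.

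Of all the lists, that of monoamine neurons held the widest differences, mostly towards the low arrays. Of 19, 14 were lower and 5 higher on the high arrays (median -0.16), with 6 lower and 2 higher at an unadjusted p under 0.05. Tph2, which makes serotonin in neurons of the brainstem raphe, was at 5.75 to 6.49 (median 5.92) on the high arrays and 5.85 to 8.06 (median 7.34) on the low arrays. The difference was -1.05 (SE 0.29), and it ran from -1.30 without wt/WT 1 to -0.855 without ko/WT 4. On 4 low arrays (ko/WT 4, wt/WT 4, ko/KO 1 and ko/WT 5) Tph2 read 7.20 or more, and on the low arrays wt/WT 1 (5.85) and ko/KO 5 (6.30) it lay within the range of the high group.

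The dopamine transporter gene Slc6a3 was at 9.06 to 10.39 (median 9.49) against 9.19 to 10.72 (median 10.57), a difference of -0.67 (SE 0.25). The serotonin transporter gene Slc6a4 (-0.385, SE 0.17, or -0.25 without ko/WT 4), Aldh1a1, an enzyme of dopamine neurons (-0.53, SE 0.18), the decarboxylase gene Ddc (-0.41, SE 0.16) and Th, tyrosine hydroxylase (-0.31, SE 0.18), went the same way. The array wt/WT 1 again sat with the high group, at 9.19 in Slc6a3 and 9.09 in Th. The summed level of the list (log2) ran from 12.57 to 13.21 on the high arrays and 12.62 to 13.42 on the low arrays, and its part in the Oxt result was not tested.

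Lists for neighbouring regions and non-neuronal cells differed in direction. Of 19 thalamic markers 14 were lower (median -0.040, or 0.0033 without wt/WT 2 and -0.097 without ko/WT 2, with Tnnt1 at 0.18 and Amotl1 at -0.11), and 10 of 20 cortical and striatal markers were higher (median 0.012, or -0.0060 without wt/WT 3 and 0.073 without wt/WT 2). Nrgn, the neurogranin gene of forebrain neurons, did not overlap between groups, at 9.06 to 9.47 against 8.77 to 9.05 (0.27, SE 0.075), and Tbr1 differed by 0.265 (SE 0.084). The other 10 members of the cortical and striatal list were lower, by up to -0.195. At an unadjusted p under 0.05, 3 of its members were higher and 0 lower. Of 21 oligodendrocyte and myelin genes 17 were lower (median -0.11), with Ugt8a at -0.33 (SE 0.13) and Mobp at -0.19 (SE 0.076). Of 16 endothelial and mural markers 13 were lower (median -0.14), 7 of them and 0 higher genes at an unadjusted p under 0.05. Abcb1a, the efflux pump of the blood-brain barrier, ran from 8.55 to 8.92 on the high arrays and 8.93 to 9.08 on the low arrays (-0.25, SE 0.074), and Tek differed by -0.22 (SE 0.072). The summed endothelial level (log2) was 12.12 to 12.33 against 12.28 to 12.44.

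Ependymal cells and tanycytes line the third ventricle, and 14 of 17 of their markers were higher (median 0.12), with 6 higher and 0 lower at an unadjusted p under 0.05, led by Crym (0.305, SE 0.088) and Mia (0.25, SE 0.071). Their summed level (log2) ran from 11.63 to 11.80 on the high arrays and 11.57 to 11.70 on the low arrays. Astrocyte markers were divided (7 higher and 9 lower of 16, median -0.034, Slc4a4 at -0.16), and 11 of 15 microglial markers were higher (median 0.020, or -0.010 without ko/KO 4 and 0.060 without wt/WT 2, with Tyrobp at 0.19 and C1qa at 0.20). Pituitary markers were higher in 12 of 13 (median 0.12), with Pitx1 at 0.21 (SE 0.095) and Fshb at 0.13. With the gene-span term described below, Pitx1 differed by 0.012 and the median was -0.066. Fshb read 6.02 to 6.36 on the high arrays and 5.93 to 6.22 on the low arrays, close to the lower quartile of the arrays (5.81 to 6.0). Of 17 meningeal markers 14 were lower (median -0.12), with Ogn at -0.505 (SE 0.26) and Aldh1a2 at -0.36 (SE 0.20). Of 14 choroid plexus markers 12 were higher (median 0.086), and without wt/WT 3 that median was -0.0042. Its leading members were Aqp1 (0.16, or 0.11 without wt/WT 3) and Kcne2 (0.21, or 0.072 without wt/WT 3). Ttr differed by 0.61 (SE 0.60), or by 0.0037 without wt/WT 3.

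All 6 blood markers were higher (median 0.099), among them S100a8 (0.19, or 0.11 without ko/KO 2) and S100a9 (0.095, or 0.020 without ko/WT 5). The sex-linked genes comprised Xist (0.58, SE 0.62, or -0.195 without ko/WT 4) and 3 Y-linked genes, including Kdm5d (0.135, or 0.086 without wt/WT 2) and Eif2s3y (0.18, or 0.28 without ko/KO 1). Kdm5d (4.81 to 5.63) and Eif2s3y (3.53 to 4.32) lay below the lower quartile of every array (5.81 to 6.0). On ko/WT 4, the array of low Xist, they read 5.42 and 3.59. The part of these cell types in the Oxt and peptide results was not tested.

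**Figure D4:**
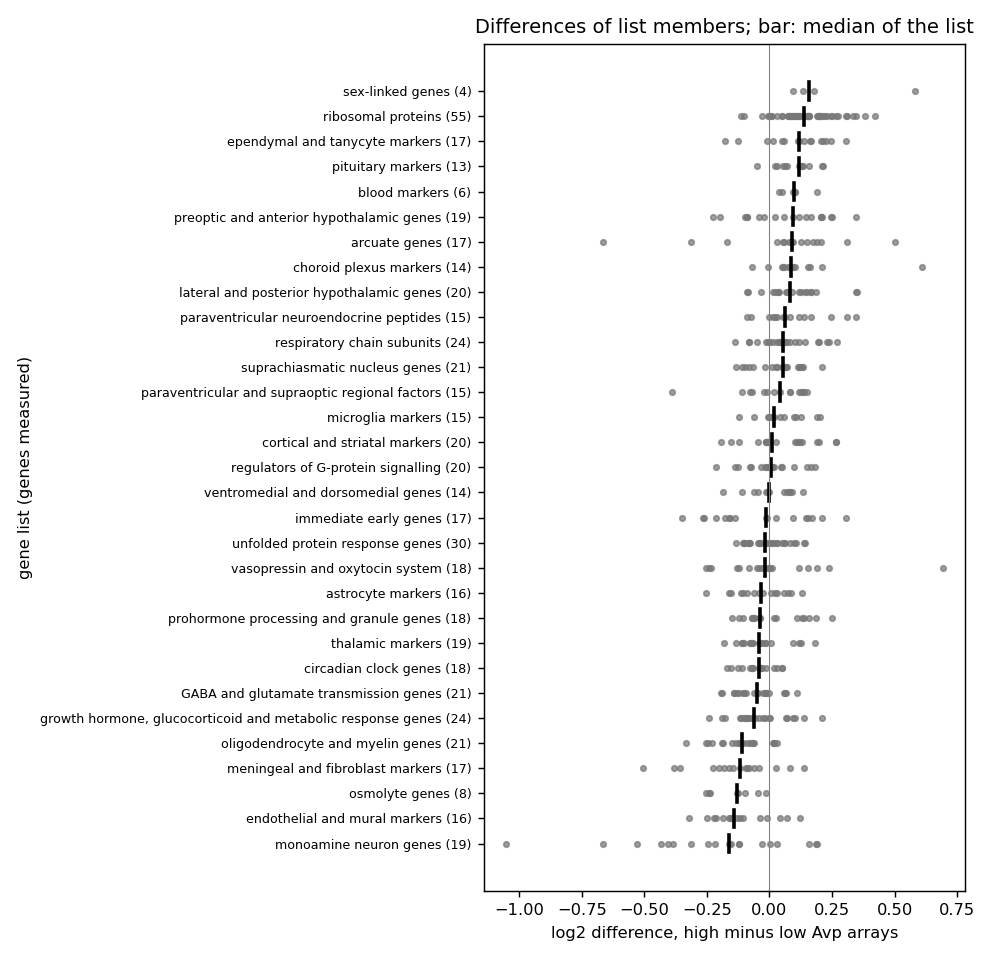
Each row is a gene list with its number of measured genes in brackets; grey points are the log2 differences of its members, high minus low Avp arrays (horizontal axis), and the bar is their median. Monoamine genes reach -1.05 (Tph2), while the medians of all lists lie between -0.16 and 0.16.

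Genes of stress, signalling and metabolism showed no common direction. Immediate early genes, which mark recent neuronal activity, had 7 of 17 higher (median -0.013, or 0.010 without wt/WT 1). Junb was at 7.14 to 7.65 against 6.90 to 7.24 (0.31, SE 0.082), while Dusp1 was at 8.85 to 9.61 against 9.39 to 9.89 (-0.35, SE 0.12). Fos, a widely used marker, differed by -0.27 (SE 0.14), or -0.17 without wt/WT 3. Of 30 unfolded protein response genes, to which Wfs1 belongs, 13 were higher and 17 lower (median -0.016, or 0.0023 without ko/WT 2). Chac1, a target of its PERK arm, differed by 0.14 (SE 0.052) without overlap, the sensor Ern1 by -0.135 (SE 0.058), and Hspa5, the main chaperone, by -0.0050 (SE 0.060), or 0.027 without ko/WT 2. Regulators of G-protein signalling were even (10 higher and 9 lower of 20, median 0.0058, or -0.0062 without wt/WT 3), with Rgs5 at -0.21 (SE 0.078) and Rgs14 at 0.18 (SE 0.078). Of 21 GABA and glutamate genes 17 were lower (median -0.050), with the receptor subunits Gria4 and Grin2a at -0.19 each.

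Of 24 growth hormone, glucocorticoid and metabolic genes 16 were lower (median -0.063), with the insulin receptor gene Insr at -0.18 (SE 0.078) and Pdk4 at -0.19 (SE 0.091). Respiratory chain subunits were higher in 18 of 24 (median 0.053), with Ndufa2 at 0.27 (SE 0.093) and Sdhb, of complex II, at 0.23 (SE 0.066). Ribosomal protein genes were looked at after values had been seen, so no test is given. Of 55, 50 were higher on the high arrays (median 0.14), and the mean level of the 55 was 10.10 to 10.18 on the high arrays and 9.84 to 10.07 on the low arrays. On the middle arrays it ran from 10.06 (wt/KO 2) to 10.27 (wt/KO 1), the latter above every high array.

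Differences also followed the length of genes, a measure chosen after the data were seen. Short genes were on the whole higher on the high arrays and long genes lower. Of 19917 genes with a RefSeq span, those in the shortest quartile (median span 2.29 kb) had a median difference of 0.073, and 74.3% were higher. In the next quartiles the medians were 0.042 (64.9% higher) and -0.0067 (46.5% higher), and in the longest (median span 93.4 kb) it was -0.053 (30.9% higher). The rank correlation of span and difference was -0.389 across genes, which do not count as independent replicates. Within each array, the correlation of every gene's deviation with log span ran from -0.349 to 0.139 (median -0.141) on the high arrays and from -0.105 to 0.267 (median 0.146) on the low arrays, with overlap. With this correlation as a term in the fit, Oxt differed by 0.613 (adjusted p = 0.565) and 1278 genes had an unadjusted p under 0.05. In that fit the median of the monoamine list was -0.060, that of the ribosomal proteins 0.14 and that of the neuroendocrine peptides 0.12. Of 86 genes named by rule, 37 had differences smaller by over 1.5 times with this term, among them Aldh1a1 (-0.185), Abcb1a (-0.11), Ogn (-0.070) and Kiss1 (0.068), and 3 had larger ones. Medians of 10 lists changed sign with it. Those of the blood (-0.072), pituitary (-0.066) and choroid plexus (-0.035) lists turned negative. Those of the prohormone (0.088), unfolded protein response (0.057), astrocyte (0.049), ventromedial and dorsomedial (0.040), clock (0.020), growth hormone and metabolic (0.012) and GABA and glutamate (0.0060) lists turned positive.

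**Figure D5:**
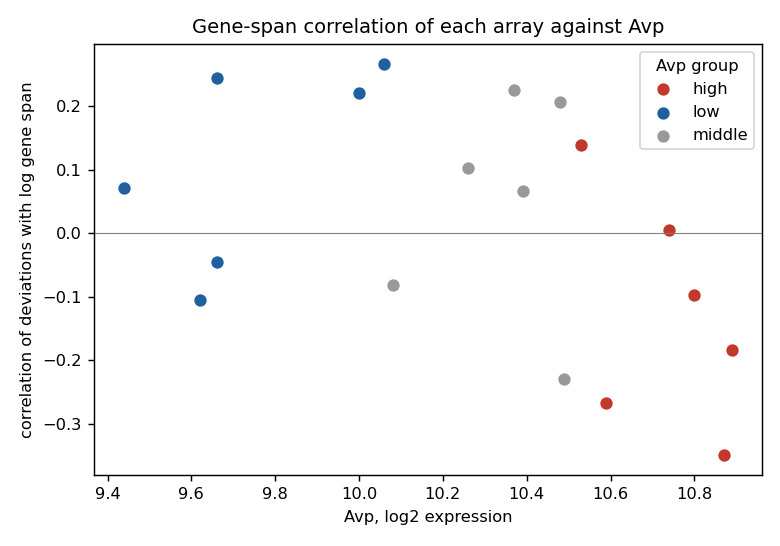
The correlation of each array's gene deviations with log gene span (vertical axis) against the log2 expression of Avp (horizontal axis), 1 point per array, coloured by Avp group. The high arrays have a median of -0.141 and the low arrays of 0.146, and the groups overlap.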

How the data were processed

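Total RNA was extracted with Trizol from frozen hypothalami and labelled with biotin for whole-transcript arrays, as the labels' protocols state. The authors deposited log2 expression values, 1 per probeset and array, a scale read from the values themselves. RMA and MAS5 are named in the submitters' processing notes, which give neither their roles nor versions. The sources used here give no array model, scan date or detection call, so background was not examined. Precision is limited by the number of arrays.

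Of 34760 probesets, 21640 carried 1 gene symbol in the platform annotation, 1321 several and 11799 none listed, and only the first were used. Entrez identifiers matched RefSeq (GRCm38.p6) for 21553, which changed 0 symbols. The brightest probeset stood for each of 19937 genes. Avp and Oxt each had 1 probeset. Avp, which chose the groups of 6 arrays, was left out of the tests, leaving 19936 genes.

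Differences on the log2 scale were fitted with limma 3.58.1 (lmFit and eBayes, R 4.3.3) without covariates, with Benjamini-Hochberg adjustment and a threshold of 0.05. Single genes were also tested by two-sided exact permutation over the 12 arrays. The fit was tested on simulated data. Gene lists were described by counts and medians, with no list test. The rule named Oxt, Wfs1, the 10 genes of smallest p in each direction, up to 2 members of smallest p per list, and the genes most and least like Avp over 18 arrays, and predicted genes were passed over. Other genes were named after their values were seen, because of their known role. The groups, lists and rules were chosen with earlier results of these data known. Alternatives covered the probeset, the normalization, dim genes, the arrays in the fit, label terms, array weights and, added after seeing the data, gene span.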

Additional observations from a re-analysis of the deposited data

Results flagged for a closer look

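Among the genes named, 172 groups of 6 arrays were examined for an array far from the rest, of which 11 stood out by Dixon's criterion, against 8.6 that chance would give at 1 in 20. The array ko/KO 2 was the lowest high array in Rc3h1 (9.43, next 9.57) and Clock (9.07, next 9.30), and the highest in S100a8 (5.95, next 5.59), Nrgn (9.47, next 9.21) and Spr (9.36, next 9.19). The array wt/WT 1 was the lowest low array in Tek (7.51, next 7.82), Gria4 (10.54, next 10.89), Aldh1a1 (10.24, next 11.01) and Cartpt (8.77, next 9.20). The array ko/KO 4 was the highest high array in the fibroblast gene Ogn (6.92, next 5.53), without which the Ogn difference was -0.75, and wt/WT 2 the highest in Chac1 (8.24, next 8.16). Of the 11, ko/KO 2 held 5 and wt/WT 1 held 4.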

How the results depend on the processing

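Over 22 alternatives (12 that each left out 1 array and 10 others), Oxt stayed higher on the high arrays, by 0.608 to 0.743, with adjusted p from 0.000883 to 0.567. One gene passed the threshold of 0.05 (1 gene called in place of 0) in 4 of them, and in each Oxt was past it: without the dimmest 40 percent of genes (0.695, adjusted p = 0.00932), with all 18 arrays in 3 groups (0.695, adjusted p = 0.0134), with a slope on Avp over 18 arrays (0.660, adjusted p = 0.000883) and with array quality weights (0.732, adjusted p = 0.0315). The slope on Avp uses the same Avp values as the choice of arrays, so its adjusted p is a description only. In the other alternatives 0 genes were called, including every fit that left out 1 array, where Oxt ranged from 0.647 to 0.743. Without the dimmest genes, 830 genes were higher and 1219 lower at an unadjusted p under 0.05, which turns the balance of directions. Of 86 genes named by the rule, 1870 of 1873 alternative values kept their sign, and the 3 that turned did so with the gene-span term: S100a9 to -0.074, Aqp1 to -0.0055 and Kcne2 to -0.034. Of 682 alternative medians of 31 lists, 34 changed sign, in 15 lists. The cause was not tested. No paired analysis was made, because the labels give no pairing of arrays between the groups. Probes near background cannot be told from those above it in these files.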
